A study of Homo sapiens with 6 samples.

Results

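The clustered histone genes of human chromosomes 1 and 6 were examined in 3 ATAC-seq peak lists. Members were the protein-coding genes of the GENCODE annotation on hg38 whose symbol starts with H1-, H2AC, H2BC, H3C or H4C on those 2 chromosomes, which gave 68 of 19111 autosomal protein-coding genes. They comprised 6 linker histone H1 genes, 17 H2A genes, 18 H2B genes, 13 H3 genes and 14 H4 genes. A member had a promoter peak when a called peak overlapped its gene start plus and minus 1 kb.

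The cells were MCF-10A, a non-tumorigenic human breast epithelial line, and ATAC-seq marks open DNA by where the transposase Tn5 inserts. The series holds the parental line, wild type for PIK3CA (WT), and a knock-in line for each of PIK3CA E545K and PIK3CA H1047R, changes in the helical and the kinase domain of the catalytic PI3K subunit. There were 2 samples per genotype, 6 in all, but each genotype is represented by 1 peak list called on its samples together. EGF stood at 20 ng/ml in the maintenance medium of the parental cells and was absent from that of both knock-in lines. For the last 24 h every line was kept in an assay medium in which EGF was 0.2 ng/ml and stripped serum 1%, and all media contained insulin, hydrocortisone and cholera toxin. Genotype and maintenance medium therefore cannot be told apart. The labels do not say whether the samples of a genotype were separate cultures, nor how many clones a knock-in line stands for. With 1 list per genotype there is no replicate check and no test, and sequencing depth is unknown. The cells were measured in bulk, so fewer open cells and less opening per cell cannot be told apart.

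Histone genes of these clusters supply the core histones H2A, H2B, H3 and H4 and the linker histone H1 that package newly made DNA, and most are transcribed in S phase. The genes are short and mostly lack introns, and their mRNAs end in a conserved stem-loop, bound by SLBP, in place of a poly(A) tail. The co-activator NPAT gathers at the clusters in nuclear bodies, and family-specific promoter elements are read by factors such as POU2F1 at the octamer of H2B genes and HINFP at the element of H4 genes.

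The promoters and stem-loops are shown first because the families differ in them and because the peaks described below lie over them. In the sequences that follow, capitals mark 5 promoter elements, each on either strand. The TATA box was searched as TATAAA, and the box read by the factor NF-Y as CCAAT. The octamer was searched as ATTTGCAT, the H1 box as AAACACA and the H4 element as GGTCCG. The CCAAT box and the H4 element can overlap, as they do in the first sequence. Many H2A and H2B genes stand head to head, and the whole interval between their starts is given 5′ to 3′ on the plus strand of hg38 for a pair under the members' largest peak (chr1:149886683-149886917) and for the pair known from testis (chr6:25726563-25726776), which had no peak in any list.
H2BC21 and H2AC20: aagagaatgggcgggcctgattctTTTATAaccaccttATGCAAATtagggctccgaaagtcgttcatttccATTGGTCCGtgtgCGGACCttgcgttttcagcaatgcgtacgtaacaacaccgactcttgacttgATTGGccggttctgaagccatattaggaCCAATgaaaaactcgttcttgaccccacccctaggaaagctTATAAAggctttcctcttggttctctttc
H2AC1 and H2BC1: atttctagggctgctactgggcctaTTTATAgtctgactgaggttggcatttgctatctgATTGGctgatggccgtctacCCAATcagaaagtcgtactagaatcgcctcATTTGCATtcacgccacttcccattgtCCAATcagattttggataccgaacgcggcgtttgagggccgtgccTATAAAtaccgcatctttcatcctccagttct

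Both intervals held 3 CCAAT boxes, 1 octamer and 2 TATA boxes, so the open pair and the pair without a peak carried the same count of these elements. Over the 12 head-to-head H2A-H2B pairs, whose starts lay 170 to 251 bp apart, the interval held a CCAAT box in 12, in 3 to 6 copies, an octamer in 9 and a TATA box in 8.

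For single genes the 150 bases before the RefSeq start are given, on the gene's strand (build GRCh38.p14). H1-4 had the largest peak of the H1 genes, H1-3 had a peak in WT and E545K only, and H1-6, known from testis, had none. The H1-4 sequence is chr6:26156179-26156328 (plus), the H1-3 sequence chr6:26234988-26235137 (minus) and the H1-6 sequence chr6:26108136-26108285 (minus).
H1-4: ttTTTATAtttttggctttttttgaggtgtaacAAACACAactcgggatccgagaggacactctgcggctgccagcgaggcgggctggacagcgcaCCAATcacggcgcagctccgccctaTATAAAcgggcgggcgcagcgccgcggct
H1-3: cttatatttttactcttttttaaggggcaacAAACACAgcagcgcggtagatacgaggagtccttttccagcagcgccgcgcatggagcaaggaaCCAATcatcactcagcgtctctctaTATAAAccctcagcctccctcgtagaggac
H1-6: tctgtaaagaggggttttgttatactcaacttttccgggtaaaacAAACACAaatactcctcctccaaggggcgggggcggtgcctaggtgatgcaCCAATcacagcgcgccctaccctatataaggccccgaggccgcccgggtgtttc

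Each of these carried the H1 box and 1 CCAAT box, whether or not a peak was called. H3C10 and H4C2 stand for open H3 and H4 promoters (chr6:27809901-27810050, plus, and chr6:26027284-26027433, minus). H4C6, H4C9 and H4C14 had no peak in any list (chr6:26240243-26240392, chr6:27139132-27139281 and chr1:149832507-149832656, all plus). The 150 bases before H4C15 (chr1:149861160-149861309, minus) are identical to those of H4C14.
H3C10: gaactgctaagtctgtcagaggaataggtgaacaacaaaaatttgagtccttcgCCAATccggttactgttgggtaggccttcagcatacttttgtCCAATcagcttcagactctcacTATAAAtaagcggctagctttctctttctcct
H4C2: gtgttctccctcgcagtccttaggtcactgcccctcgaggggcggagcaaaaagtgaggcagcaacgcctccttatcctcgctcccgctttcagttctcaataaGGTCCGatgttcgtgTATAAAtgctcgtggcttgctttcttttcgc
H4C6: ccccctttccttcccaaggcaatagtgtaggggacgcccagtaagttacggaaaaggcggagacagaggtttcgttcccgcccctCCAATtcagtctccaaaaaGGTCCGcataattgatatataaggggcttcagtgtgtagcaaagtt
H4C9: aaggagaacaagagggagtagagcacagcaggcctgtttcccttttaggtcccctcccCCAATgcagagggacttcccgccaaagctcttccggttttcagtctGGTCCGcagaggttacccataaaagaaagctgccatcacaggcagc
H4C14: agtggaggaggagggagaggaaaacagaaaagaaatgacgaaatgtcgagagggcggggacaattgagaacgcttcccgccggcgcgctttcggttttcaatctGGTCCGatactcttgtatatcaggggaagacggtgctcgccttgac

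The H4 element stood in all 4 of these H4 promoters, of which only H4C2 had a peak. In windows from 250 bases before to 50 bases after the start, a CCAAT box was found in 86.8% of the 68 members (95% Wilson interval 76.7 to 92.9) against 35.6% of all coding promoters, and 69.1% held 2 or more against 11.7%. A TATA box was found in 66.2% against 10.9%, and an octamer in 38.2% against 1.68%. The octamer was nearly limited to H2A (12 of 17) and H2B (13 of 18), with 1 of 13 H3 genes and 0 of 20 H1 and H4 genes. These counts are of windows and not of separate elements. Starts of head-to-head H2A-H2B pairs lay 170 to 251 bp apart, so 1 element between them can count for both genes. The H3 gene with an octamer was H3C12, whose annotated start lies 79 bp from that of the paired gene H2AC17. Windows were placed at the gene start, which for H2BC6, H3C6 and H3C12 lies 11702, 936 and 2280 bp before the canonical start. The windows of these genes are therefore not at their canonical promoters, and that of H2BC6 held none of the elements. The H1 box stood in 6 of 6 H1 genes and in 13.2% of all members against 5.07% of coding promoters, and the H4 element in 11 of 14 H4 genes and in 20.6% of members against 12.7%. E2F sites (TTTCCCGC or TTTGGCGC, either strand) stood in 2.94% of members and 2.75% of coding promoters. Of the 10 members with no peak in any list, 5 held a TATA box, 7 a CCAAT box, 2 an octamer, 3 the H1 box and 4 the H4 element.

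The 3′ stem-loop, sought on the gene strand within 1 kb after the canonical start, was found in 68 of 68 members and in 15 of 19043 other coding genes (0.0788%). Among those 15 were the histone genes H3-7, H3-4, H2AX and H4C16, and ENSG00000282988, which has the same gene start as H2AC7. The 5 forms that follow are the 4 carried by more than 1 member and that of H4C13, with the pairing stem in capitals and the loop in lower case.
40 members, all families but H4: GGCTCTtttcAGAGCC
9 H4 genes: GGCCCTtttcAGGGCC
9 H1, H2A, H2B and H3 genes: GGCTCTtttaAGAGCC
H4C9, H4C12, H4C14 and H4C15: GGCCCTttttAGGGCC
H4C13: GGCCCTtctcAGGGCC

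The 14 H4 genes thus shared a stem that no other member had on both arms (H2AC11 had it on 1 arm), and their loops were of 3 kinds. In H2BC21 the stem-loop lies at chr1:149886188-149886203 (minus) and in H4C2 at chr6:26026901-26026916 (minus), 479 and 367 bp after the canonical start. Its median distance over the 68 members was 466 bp.

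Most clustered histone promoters were open in all 3 genotypes. A promoter peak was called for 58 of 68 members in WT (85.3%, 75.0 to 91.8, against a background of 65.3% of all coding genes), for 57 in E545K (83.8%, background 65.4%) and for 57 in H1047R (83.8%, background 66.1%). All 3 lists had one for 56 members (82.4%, 71.6 to 89.6), against 63.3% of coding genes. No list had one for 10 members (14.7%, background 32%), and 2 members had one in some lists only (2.94%, background 4.69%). The intervals cover counting error only, and members that share a peak are not independent.

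By family, a peak in all lists was present for 17 of 18 H2B, 15 of 17 H2A, 11 of 13 H3, 9 of 14 H4 and 4 of 6 H1 genes. By location, the members fell into 5 groups: 11 genes from H2BC18 to H2AC21 on 1q21, the pair H2AC25 and H2BC26 on 1q42, and 34, 5 and 16 genes on 6p. The 16 genes from H2BC13 to H2BC17 all had a peak in each list, as did 28 of the 34 from H2AC1 to H4C8 and 4 of the 5 from H2BC11 to H2AC12. The 1q21 group had 6 of 11.

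Cytosolic ribosomal protein genes, another highly transcribed short-gene family, had a peak in all lists for 70 of 73 (95.9%), and the ZNF genes of chromosome 19, a tandem family, for 160 of 249 (64.3%). The members' share lay between these. Among 423 other coding genes whose canonical transcript spans at most 1 kb, 62 had a peak in all lists (14.7%), far below the members.

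Counted by member, the peaks were large. The area of a peak, the authors' value, sums the peak caller's signal over its width and is no read count. The members' median area was 5397 in WT, 4174 in E545K and 4717 in H1047R, beside 3479, 3111 and 3605 over all coding genes with a promoter peak. Their median width was 1937, 1697 and 1945 bp, beside 1434, 1439 and 1483 bp, and the median summit value (−log10 p at the summit) was 8.37, 7.55 and 7.61, beside 7.71, 7.0 and 7.49. Ribosomal protein promoters had a WT median of 4677 in area, 1704 bp in width and 8.99 in summit value. Counted by member, the WT medians of area and width were thus above those of ribosomal protein genes, and that of the summit value below. A peak shared by several members enters once for each, and the 58 WT members had 38 different largest peaks. Counted once each, WT peaks of head-to-head H2A-H2B pairs had a median area of 6895. Those of H2A and H2B genes in no pair had 2462, and those of H1, H3 and H4 genes 3484. The member medians are therefore not those of separate peaks.

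**Figure D1:**
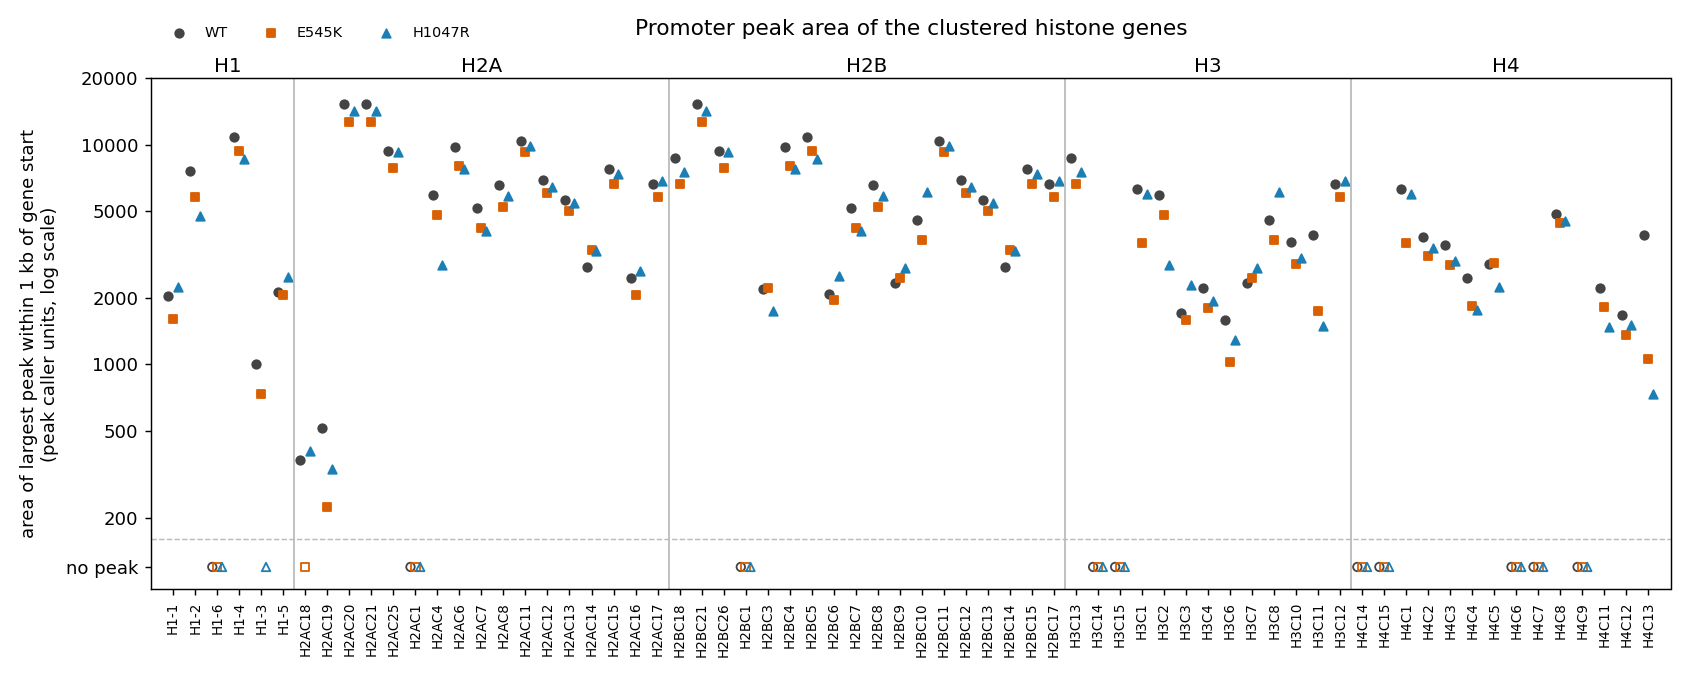
Area of the largest peak within 1 kb of the start for each of the 68 members, grouped by histone family (x axis), in peak caller units on a log scale (y axis); open symbols mark members without a peak in a list. H2A and H2B genes reach the highest areas, up to 15268 in WT, while 5 of 14 H4 genes have no peak in any list.

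The largest area belonged to a single peak over H2BC21, H2AC20 and H2AC21, an H2B gene and a pair of H2A genes (chr1:149884713-149889137 in WT, hg38). It was 15268 in WT, 12629 in E545K and 14243 in H1047R, with widths of 4425, 3844 and 4424 bp. The peak over the linker histone gene H1-4 and its neighbour H2BC5 followed with 10844, 9353 and 8576. The pair H2BC11 and H2AC11 had 10355, 9220 and 9843. Among H3 genes H3C13 was highest in WT, through the peak it shared with H2BC18 (8648, 6602 and 7497), and among H4 genes H4C1, through the peak it shared with H3C1 (6254, 3582 and 5985). The smallest areas were those of H2AC18 (368 in WT, none in E545K and 405 in H1047R) and H2AC19 (514, 225 and 333), both far below every other member with a peak in WT, of which H1-3 was next with 1003. In E545K the next smallest after H2AC19 were H1-3 (732) and H3C6 (1026). In H1047R H4C13 (738) followed H2AC19 and H2AC18.

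Areas of different lists are not on 1 scale, so strength was compared by percentile rank over the 12090 coding genes with a promoter peak in every list, 100 being the largest area. The 56 members ranked had a median of 77.7 for WT, 67.6 for E545K and 70.3 for H1047R. A rank of 90 or more was held by 16, 11 and 11 of them (28.6%, 19.6% and 19.6%, background 10.0%). Those members stood under 8, 5 and 5 different WT peaks, and the 56 ranked members under 36. A shared peak thus counts once for each of its members in these shares and medians. Ranked by summit value the medians were 66.1, 59.9 and 50.3, so by summit value the members stood above the middle of the list in WT and E545K but at about the middle in H1047R.

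The families differed in rank. H2A and H2B genes had medians of 85.4 for WT, 83.0 for E545K and 83.5 for H1047R, the same for both since most share their peaks. H1 medians were 57.9, 55.8 and 47.4 over 4 genes, which ranged from 24.4 for H1-1 to 97.2 for H1-4 in WT. The H1-4 rank is that of the peak shared with H2BC5, whose summit lay before the H2BC5 start. H3 medians were 54.7, 43.9 and 34.6 over 11 genes. Their order depended on the measure, since the H3 medians were 53.8, 55.9 and 57.6 by the summed area of all peaks in the window and 47.8, 33.5 and 45.9 by summit value. H4 genes, 9 ranked, had the lowest medians by area, at 48.7, 43.3 and 25.3. By summit value the WT median of H1 genes was lower (38.2 against 41.2). With the peak covering the start, the E545K median of H3 genes was lower (33.0 against 40.3).

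Paired H2A and H2B genes had the larger peaks. The 22 H2A and H2B genes of head-to-head pairs with a peak shared 11 peaks, of median area 6895 in WT, 6011 in E545K and 6830 in H1047R. The 11 peaks of H2A and H2B genes in no such pair, of which that of H2AC21 is also a pair's peak, had a WT median of 2462, and the 23 of H1, H3 and H4 genes 3484. A peak over a pair spans 2 promoters, so its area is not that of 1 gene.

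Many members shared a peak. The 58 members with a promoter peak in WT were served by 38 different largest peaks, the 57 in E545K by 37 and the 57 in H1047R by 38, while the 12470 coding genes with a promoter peak in WT had 10693 different ones. In WT 18 of these peaks served 2 or more members, 38 members in all, and no peak served more than 3. Of the 12 head-to-head H2A-H2B pairs, 11 had 1 peak over both starts in each list, and only H2AC1 and H2BC1 had none. The summit lay between the starts in 11 of them in WT and H1047R and in 9 in E545K, where those of H2BC8 with H2AC8 and H2BC11 with H2AC11 lay just inside the H2B gene, 17 and 19 bp after its start. H3C7 and H2BC9, also head to head but 979 bp apart, had separate peaks in each list, of 2339 and 1322 in WT, 2474 and 1394 in E545K and 2751 and 1488 in H1047R.

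A peak lay over the gene start itself for 56 members in WT and E545K (82.4%, background 58.3% and 58.8%) and 55 in H1047R (80.9%, background 59.2%). In most members the peaks ran through the whole gene. The canonical transcript was covered from end to end in 45 of 58 members with a promoter peak in WT (77.6%, background 1.19%), 44 of 57 in E545K (77.2%, background 1.42%) and 43 of 57 in H1047R (75.4%, background 1.12%). The background genes are mostly far longer than a peak. Among the other coding genes of at most 1 kb with a promoter peak in WT, 47.8% were covered from end to end. The peak over the start reached the 3′ stem-loop shown above in 47 of 56 members in WT, 45 of 56 in E545K and 45 of 55 in H1047R.

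Upstream, the comparison with ribosomal protein genes depended on the distance. At 500 bp before the start members were covered less often than ribosomal protein genes in each list, with 52.9% against 64.4% in WT. They stood above all coding genes there, with 34.5% for the latter in WT. At 1000 bp before the start 45.6% of members were under a peak in WT, 39.7% in E545K and 47.1% in H1047R, beside 24.7%, 21.9% and 27.4% of ribosomal protein genes and 12.4%, 12.7% and 13.2% of all coding genes. At 1000 bp after the start the members stood below the ribosomal protein genes, with 36.8% against 56.2% in WT, and above all coding genes, with 27.4%. Adjacent members had starts within 3 kb in 28 pairs, so a neighbour's peak can cover these upstream positions. In WT 13 of 17 H2A genes and 11 of 18 H2B genes were covered at 1000 bp before the start, and 0 of 6 H1 genes. The summit lay within 250 bp before the start in 42 of 58 members in WT, 37 of 57 in E545K and 39 of 57 in H1047R, beside 6190 of 12470, 5959 of 12507 and 6259 of 12625 coding genes with a promoter peak. The members' summits had medians of -82.5, -71.0 and -91.0 bp from the start, over the stretch of promoter elements printed above.

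**Figure D2:**
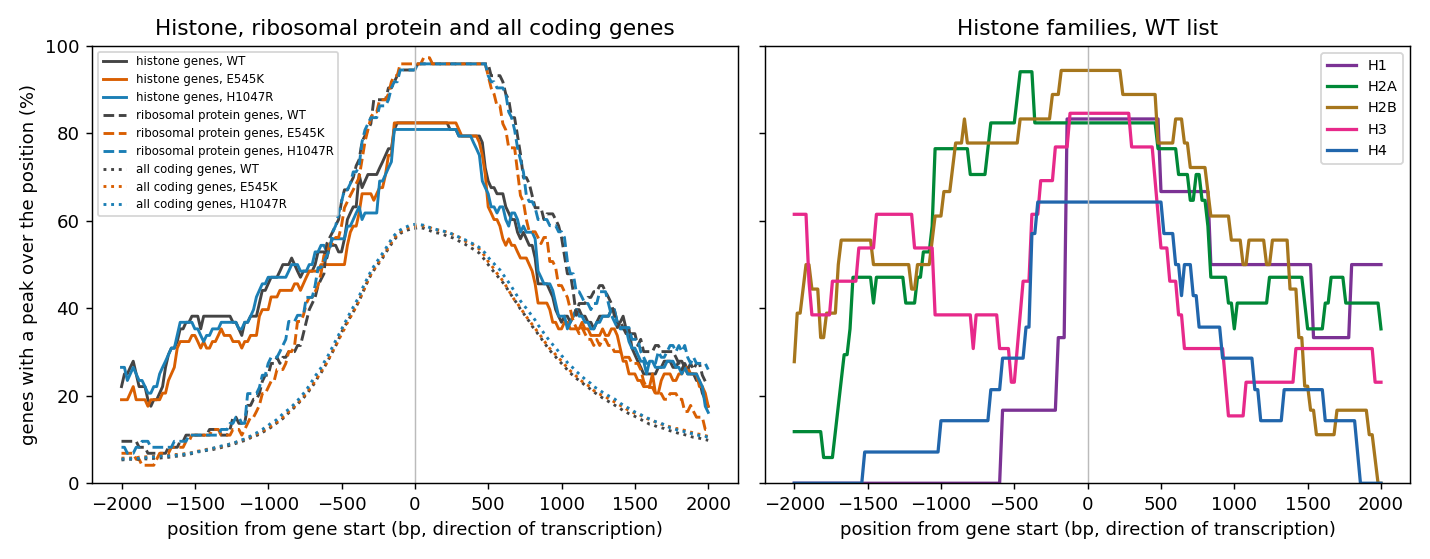
Share of genes with a called peak over each position from 2000 bp before to 2000 bp after the gene start (x axis, direction of transcription), for the 68 histone genes, 73 ribosomal protein genes and all 19111 coding genes in each list (left), and for the 5 histone families in WT (right). At the start 82.4% of histone genes are covered in WT, and at 1000 bp before it 45.6%, against 12.4% of all coding genes.

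The 10 members without a promoter peak in any list were of 3 kinds. H2AC1, H2BC1 and H1-6 are the members known from testis germ cells. The nearest peak to H1-6 was 3.61 kb away in WT, and that to H2AC1 28.3 kb away. Their windows were 95.2%, 91.4% and 100% unique, taken as the share of 32-base words found once in hg38. A list of 8 testis germ cell markers (DDX4, TNP1, TNP2, PRM1, PRM2, SYCP3, ACRV1 and DAZL) had no promoter peak in any list either.

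A further 4 lie in a duplicated stretch of 1q21 and have near-identical copies. The windows of H4C14 and H4C15 are identical over their whole length of 2001 bases and those of H3C14 and H3C15 at 99.8% of bases, and none of their 32-base words is unique. H2AC18 and H2AC19, between them, share 94.3% of bases and were 12.1% and 12.2% unique, and their starts were under no peak in any list. A read from such a stretch cannot be placed at 1 copy by its sequence, and the handling of reads with several placements was not given in the sources used here. For these 6 genes the lists therefore cannot tell closed chromatin from lost reads. Low uniqueness did not always go with a missing peak: H2BC18 and H3C13, also on 1q21, were 23.4% and 17.7% unique and stood under 1 peak in each list.

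The remaining 3, H4C6, H4C7 and H4C9, are H4 genes on 6p with mostly unique windows (79.6%, 87.2% and 94.2%). Their nearest peaks in WT were 2.68, 2.69 and 4.49 kb away. H4C9 stood within the group of 5 whose other members had peaks of 6895 and 10355 in WT. All 3 carried the 3′ stem-loop, and H4C6 and H4C9 carried the H4 element printed above. Over all members, the 55 with the start under a peak in each list had a median of 92.0% unique words and 2 below 50%. The 12 with the start under no peak had a median of 45.9% and 6 below 50%.

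**Figure D3:**
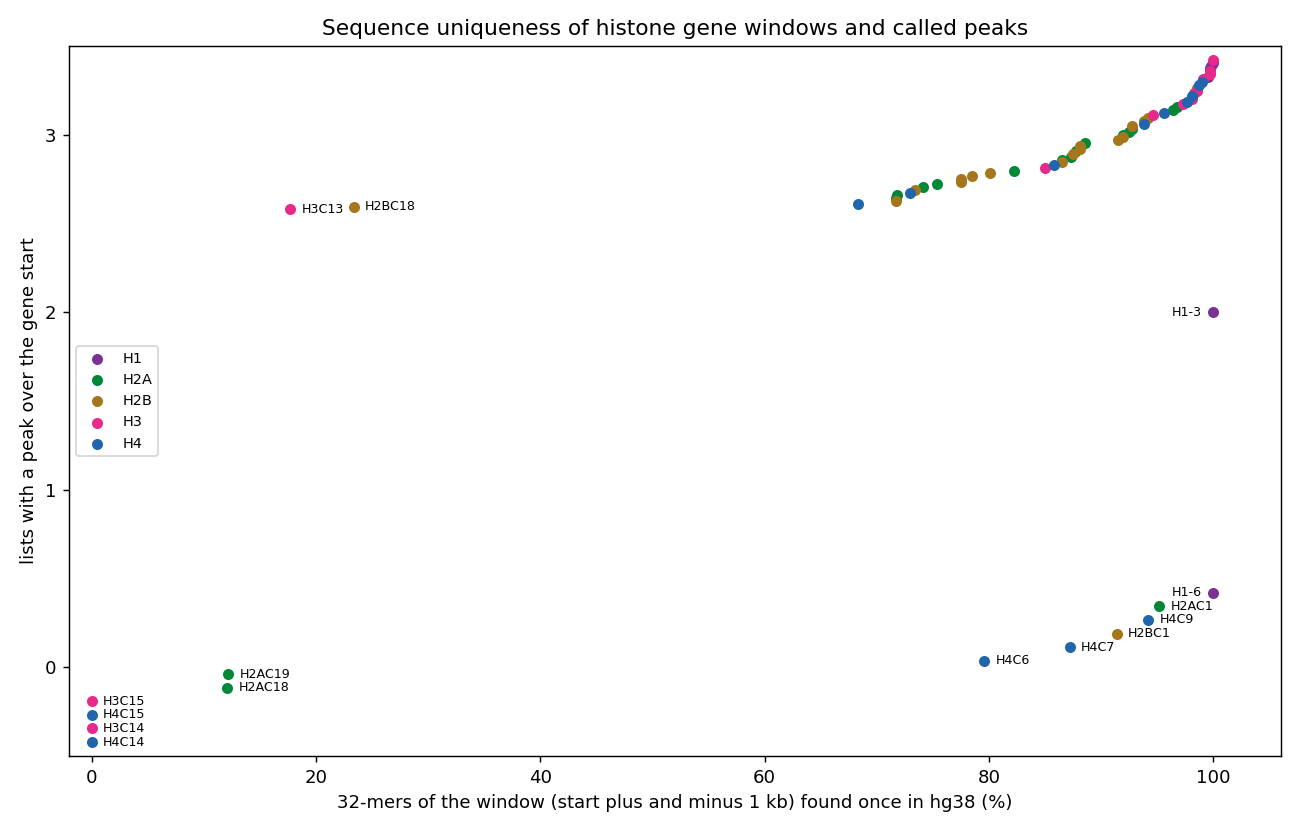
Share of 32-base words of each member's window that occur once in hg38 (x axis, percent) and number of lists with a peak over its start (y axis; points of 1 row are spread vertically for legibility). Of the 12 members covered in no list, 6 are under 50% unique, and the other 6 are the 3 testis genes and H4C6, H4C7 and H4C9.

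Between the genotypes, calls for members differed at 2 genes. H1-3, a linker histone gene (chr6:26234212-26234987, minus strand), had a promoter peak of area 1003 and 647 bp in WT and 732 and 631 bp in E545K, and none in H1047R, whose nearest peak was 8.08 kb away. Its window was 100% unique. Its summit lay 49 bp before the start in WT and 50 bp in E545K, between the CCAAT box and the TATA box printed above, close to the CCAAT box. H2AC18 (chr1:149842218-149842750, minus) had a peak in WT and H1047R in its window but not over its start, and in E545K its nearest peak lay 1.48 kb away. So 1 of 68 members had a peak in WT and not in E545K (background 1.49%), 1 in WT and not in H1047R (background 1.04%), 1 in E545K and not in H1047R (background 1.34%) and 1 in H1047R and not in E545K (background 1.96%). None had one in E545K or H1047R and not in WT (background 1.68% and 1.85%). These shares are near those of all coding genes.

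In rank, most members stood slightly lower in the knock-in lists than in WT. Both comparisons share the WT list. E545K minus WT had a median of -2.65 points, with 46 of 56 members lower, beside -0.57 over all 12090 genes, of which 6765 were lower. H1047R minus WT had a median of -3.16 points, with 42 of 56 lower, beside -0.39 and 6510 of 12090. Ribosomal protein genes had medians of -2.02, with 47 of 70 lower, and -4.09, with 60 of 70 lower, so values of this size were not limited to histone genes. By summit value the member medians were -3.54 and -6.30, beside -0.12 and -0.17 over all 12090 genes.

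A rank at least 10 points lower in E545K than in WT was seen for 4 of 56 members (7.14%, background 6.63%), which stood under 2 WT peaks: H3C1 with H4C1, and H3C11 with H4C13. Ranked by summit value they numbered 10, for which no share over all coding genes was counted. H3C11 and H4C13, under 1 peak in WT, had separate peaks in E545K. A rank at least 10 points higher was seen for 2, H2AC14 and H2BC14 under 1 peak (3.57%, background 7.59%), whose area was 2778 in WT, 3303 in E545K and 3290 in H1047R. The peak over H3C1 and H4C1 measured 6254, 3582 and 5985, and E545K stood apart from both other lists. It was 2291, 1697 and 2144 bp wide, and in E545K it covered 77.4% of H4C1 and all of it in the other lists.

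In H1047R, 12 of 56 members ranked at least 10 points lower than in WT (21.4%, background 6.49%), at 9 WT peaks. They were H3C2, H2AC4, H1-2, H4C3, H4C4, H2AC7, H2BC7, H4C5, H3C10, H4C11, H3C11 and H4C13. The largest differences were at H4C13 (-49.2), H3C2 and H2AC4 (-45.7 each) and H3C11 (-40.7). H3C2 with H2AC4 and H3C11 with H4C13 each shared 1 peak in WT but had separate peaks in H1047R. For H3C2 the H1047R value was that of the peak over H2AC4, whose summit lay 1610 bp before the H3C2 start. At least 10 points higher were 2, H3C8 and H2BC10 (3.57%, background 7.17%), which had separate peaks in WT and shared 1 in H1047R. H1-2, a linker histone gene, had areas of 7626, 5781 and 4717, a rank difference of -24.3 points between H1047R and WT. The pair H2AC7 and H2BC7 had 5176, 4174 and 4027, a difference of -17.9 points. Set against E545K, H1047R ranked at least 10 points lower at 8 members (14.3%, background 6.86%) under 6 WT peaks. Among them were H2BC3, with areas of 2207, 2237 and 1760, and H3C2 with H2AC4, which shared 1 peak in E545K. H1047R ranked at least 10 points higher at 4 (7.14%, background 5.94%), H3C1, H4C1, H3C8 and H2BC10.

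The H4 genes were lower in H1047R than in WT at 9 of 9 ranked members, with a median of -12.22 points, beside 6510 of 12090 coding genes and 60 of 70 ribosomal protein genes lower. H4C5 had areas of 2867 for WT, 2888 for E545K and 2260 for H1047R, and H4C4 had 2473, 1853 and 1771. H4C3 had 3484, 2836 and 2945, and H4C11 had 2218, 1831 and 1481. By rank, H1047R was the lowest of the lists at 8 of the 9, H4C3 (48.7, 43.3 and 36.4), H4C8 (69.0, 69.2 and 62.5) and H4C12 (18.8, 16.6 and 14.5) among them, and E545K at H4C1. By summit value 8 of 9 were lower, with a median of -10.38, beside 6232 of 12090 coding genes lower and a median of -0.17. In E545K 7 of 9 were lower than in WT, with a median of -5.33. The H3 medians were -6.04 in E545K and -3.76 in H1047R, and those of H2A and H2B lay between -1.70 and -2.61. The medians describe 1 list per genotype, and no difference between families was tested.

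**Figure D4:**
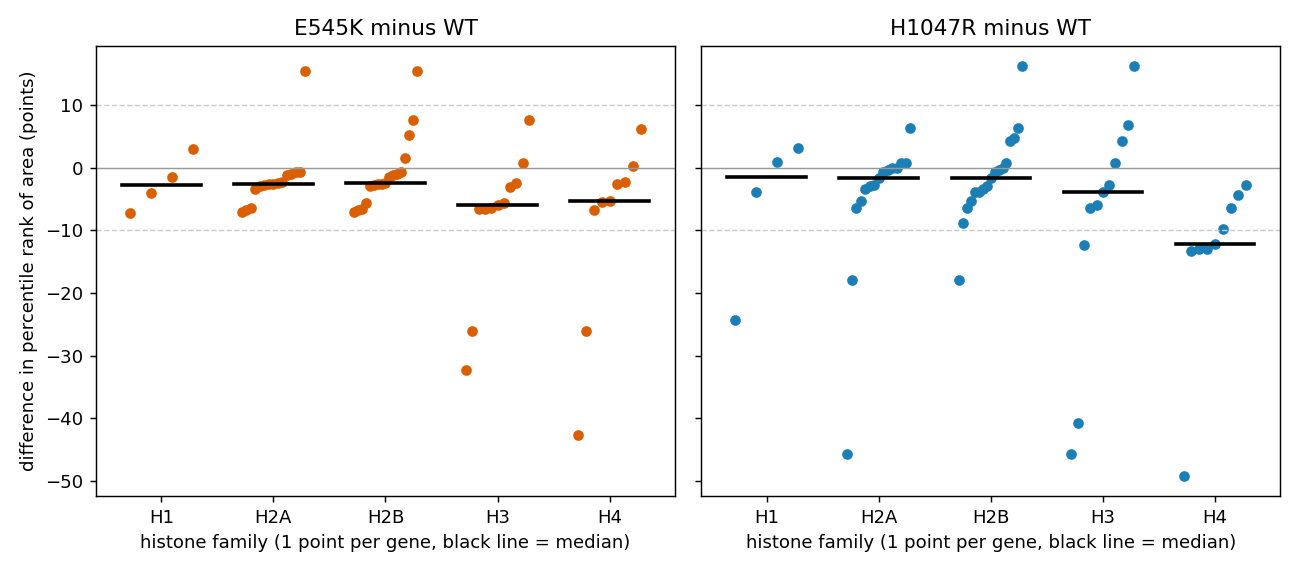
Difference in percentile rank of area (y axis, points, rank over 12090 promoters) between each knock-in list and WT, 1 point per member with a promoter peak in all lists, by family (x axis); black lines are medians and dashed lines mark 10 points. All 9 H4 points are below 0 in H1047R minus WT, with a median of -12.22.

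Some neighbouring members stood under 1 peak in one list and under separate peaks in another. Of 28 neighbour pairs, 18 had 1 peak over both starts in WT and 17 in each knock-in list, and 3 pairs differed between lists. The share that differed among neighbouring pairs of other coding genes was not counted. Whether 3 of 28 is more than usual is therefore unknown. H3C2 and H2AC4, an H3 and an H2A gene, stood under 1 peak in WT (chr6:26031637-26034112, 2476 bp, area 5916) and in E545K (2448 bp, 4768). In H1047R they had 2 peaks of 717 and 1746 bp with areas of 2320 and 2838. H3C8 and H2BC10 had 2 peaks in WT (948 and 1605 bp, areas 1524 and 4542) and in E545K (957 and 1632 bp, areas 1601 and 3671). In H1047R they stood under 1 peak of 2971 bp and area 6095 (chr6:26270927-26273897). H3C11 and H4C13 stood under 1 peak of 2212 bp and area 3865 in WT (chr6:27871703-27873914). They had 2 peaks in E545K (628 and 1050 bp, areas 1743 and 1063) and in H1047R (616 and 548 bp, areas 1495 and 738). Separate peaks could lie close together. In H1047R the peak over H3C2 ended at 26032356 and that over H2AC4 began at 26032462. In WT the peak over H3C8 ended at 26271880 and that over H2BC10 began at 26272023. In E545K the peak over H3C11 ended at 27872526 and that over H4C13 began at 27872633. In H1047R these positions were 27872515 and 27873135.

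H3C8 and H2BC10 ranked higher in H1047R than in WT by area (81.0 against 64.8) but lower by summit value (57.0 against 67.8). When the areas of all peaks in a window were summed, members at least 10 points higher in H1047R than in WT numbered 1 and those lower 11.

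**Figure D5:**
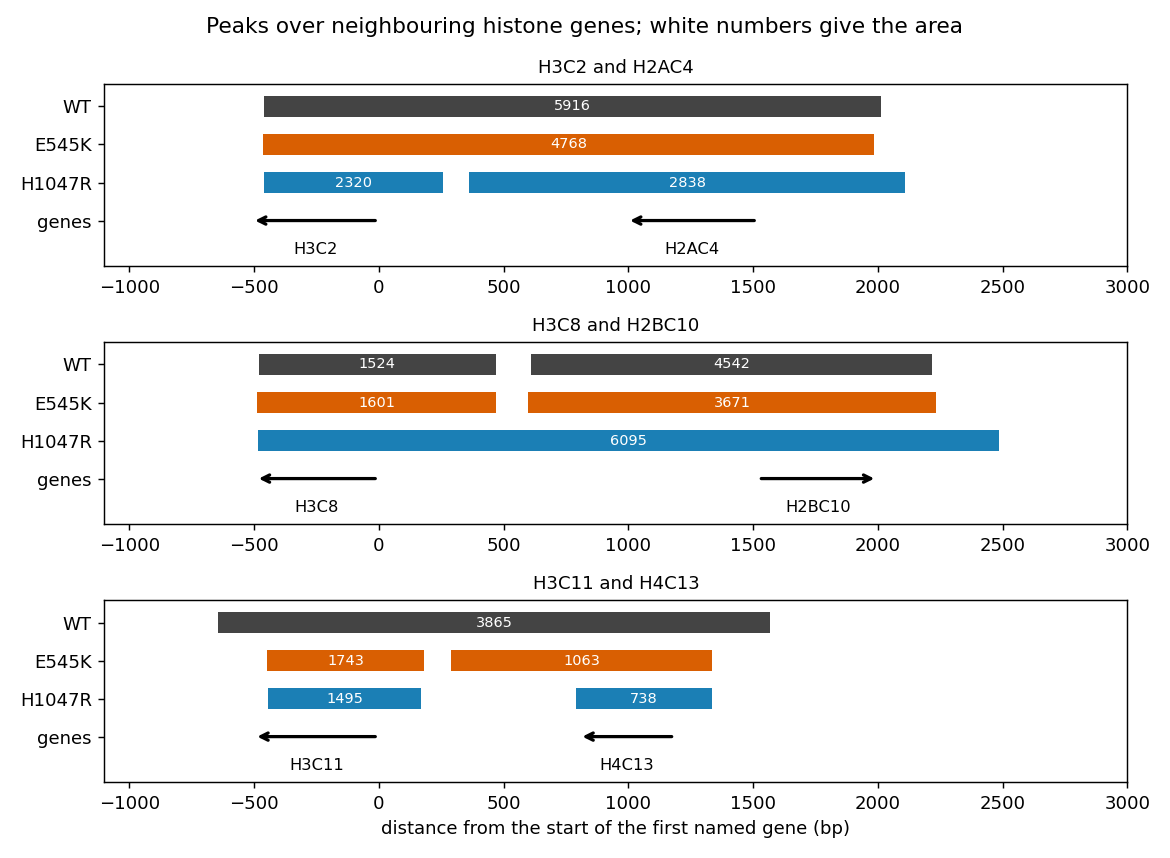
Called peaks (bars, 1 row per list) over the 3 neighbour pairs whose joining differed, by distance in bp from the start of the first named gene (x axis, reference direction); arrows show the canonical transcripts and white numbers the peak areas. H3C2 and H2AC4 are under 1 peak in WT and E545K and 2 in H1047R, and H3C11 and H4C13 under 1 peak in WT only.

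Width gave few calls. A peak at least 1.5 times wider in WT than in E545K was found at 4 of 57 members (H2AC19, H1-1, H3C11 and H4C13, 7.02%, background 3.13%) and the reverse at 1 (H2AC16, 1.75%, background 6.11%). At H2AC16 the call arose because the largest peak in its E545K window was that of its neighbour H1-5 (2080, beside 2026 for its own). H1047R was wider than WT at 2 (H3C8 and H2BC10, 3.51%, background 5.87%) and narrower at 2 (H3C11 and H4C13, 3.51%, background 3.09%). It was wider than E545K at 5 (H2AC19, H2BC8, H2AC8, H3C8 and H2BC10, 8.93%, background 4.82%) and narrower at 1 (H4C13, 1.79%, background 5.05%). H2BC8 with H2AC8 had 1692 bp in WT, 1353 bp in E545K and 2364 bp in H1047R.

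For 3 members the annotated gene start lies far from the canonical transcript. H2BC6 had a peak at its gene start (2083 in WT, 1961 in E545K and 2536 in H1047R), but at the canonical start 11702 bp further on only E545K had one, of area 661. H3C12 shared the peak of H2AC17 and H2BC17 at its gene start, while 2280 bp further on, at its canonical start, E545K had 666, H1047R 695 and WT none. At H3C6 the canonical start, 936 bp after the gene start, was under no peak.

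Other genes inside or near the clusters served as a local comparison. Of 16 histone pseudogenes on chromosomes 1 and 6, 9 had a peak in the window in WT, 8 in E545K and 10 in H1047R. The start itself was covered in 4, 4 and 5. Not all lie inside a cluster: H2BC27P was 6491 bp beyond H2BC26. H3C9P was 36654 bp beyond H4C8, and its start was covered in each list. In WT 7 of the 9 were peaks of a member. Of 8 other coding genes between the outermost members, 4 had a peak in each list, of which 2 were members' own peaks (BOLA1 under that of H2AC21 and ENSG00000282988 under that of H2AC7), and 4, the transporter genes SLC17A1 to SLC17A4, in none.

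Chosen genes for the transcription, mRNA processing and chaperoning of histones were open throughout. All 13 genes listed for histone gene transcription and all 15 for 3′ end processing of histone mRNA had a promoter peak in each list. So did all 16 autosomal genes of the chaperone list, against a background of 63.3% of all coding genes. NPAT had areas of 6702 for WT, 5687 for E545K and 6405 for H1047R, and SLBP had 8316, 6856 and 7314. YY1, a zinc finger transcription factor, had 9246, 4564 and 9313, and the TATA-binding protein gene TBP 6111, 3716 and 6274, both lowest in E545K. Their rank medians were -5.81 points in E545K minus WT and -2.43 in H1047R minus WT for the transcription list, and between -1.22 and -2.77 for both other lists.

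Of 18 annotated histone genes outside the rule for members, 12 had a peak in each list and 5 in none (H1-7, H1-8, H2BC12L, H3-4 and H3-5). MACROH2A2, a macroH2A variant gene, had 817 in WT, 942 in H1047R and no peak in E545K. H1-10, a replacement linker histone gene, had 7599, 4705 and 4316, highest in WT. The labelled epithelial identity was checked by markers: 8 of 9 basal breast markers had a promoter peak in each list (TP63 had none at its gene start), beside 1 of 4 luminal (FOXA1), 1 of 4 immune (CD14) and 0 of 3 endothelial markers.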

How the data were processed

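Samples were grouped by the labelled genotype. Reads were trimmed with Trim Galore 0.4.0 and peaks called with Genrich 0.6.1 on hg38, per the submitters' processing notes (aligner not given in the sources used here). The authors deposited 1 list per genotype (98910 peaks in WT, 89416 in E545K and 106747 in H1047R, autosomes only, smallest area 200). Each deposited peak has a signal value, the area under the caller's curve, and the −log10 p of its summit. These are the authors' values. A promoter's peak was that of largest area overlapping, by at least 1 bp, the GENCODE release 44 gene start plus and minus 1 kb. Python 3.11.15, numpy 2.4.6, pandas 2.3.3 and matplotlib 3.10.9 were used, and counting was checked against bedtools and on simulated data. RefSeq promoter sequences matched 63 of 68 members, 57 with the same start. Named members were those with a peak in some lists or none, the largest and smallest areas, the largest of each family, and those past a rank difference of 10 points or a width ratio of 1.5 (up to 10 per direction); the others named illustrate the families and were chosen after their values were seen. Members and gene lists were chosen with earlier results of these data known.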

Additional observations from a re-analysis of the deposited data

How the results depend on the processing

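No paired analysis was possible because each genotype has 1 pooled peak list and no test. Of 132 values under alternatives, 115 stayed within 1.5 times the reported count and 17 did not; all rest on counts of 10 or fewer. Members with a peak in some lists only, 2 as reported, numbered 1 with a window of 250 bp, with lists cut to equal length by summit value and with peaks covering the start, and 4 at the canonical start (H2AC18, H2BC6, H1-3 and H3C12). By summit value, 10 members ranked at least 10 points lower in E545K than in WT (4 by area) and 1 higher in H1047R than in WT (2 by area). Shares of all coding genes past 10 points were not counted under the alternatives. With summed areas, 4 ranked higher in E545K than in WT (2 as reported) and 1 higher in H1047R than in WT. Counted as bp of the window covered, members at least 1.5 times wider numbered 0 for E545K over WT, 2 for WT over E545K, 0 for H1047R over WT, 2 for H1047R over E545K and 2 for E545K over H1047R. With a window of 250 bp, and with peaks covering the start, they numbered 0 for E545K over WT and 2 for E545K over H1047R. H1-3 was among the members with a peak in some lists only under each setting tried. The peak covering the start was chosen as an alternative after seeing the data. Why values moved was not tested. Unknown depth and single lists limit every difference between genotypes, and near-identical copies limit 6 genes of 1q21.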
